A study of Mus musculus with 9 samples.

Results

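The genes described here are Trp53, which encodes the transcription factor p53, and 9 of its well-known target genes, chosen by symbol: Mdm2, Ccng1, Cdkn1a, Gadd45a, Sesn1, Sesn2, Trp53inp1, Pmaip1 and Bbc3. The array annotation named 19939 genes through the probe sets used. Of the 10 genes, 9 had a probe set, and 8 of them were among the 9865 genes that passed a filter on dim probe sets (a mean RMA intensity of at least 167.1 over all arrays). Bbc3 lay below that filter. No probe set was named for Trp53 in the annotation used, so the mRNA of p53 itself was not analysed here. The cells were C2C12, a mouse myoblast line grown in serum-containing medium, treated with an siRNA against Cugbp1 (current symbol Celf1), an siRNA against Mbnl1 or a control siRNA. Actinomycin D at 5 ug/ml was then added to stop transcription, and total RNA taken 0, 2.5 and 5 h later was hybridised to Affymetrix whole-transcript arrays. The 0 h arrays of each siRNA are the cells at the addition of the drug, and all later arrays carry both an siRNA and the drug. There are 9 arrays, 1 per siRNA at each time, hence 3 per siRNA and 3 per time, and the labels do not say whether they came from separate cultures. The series asks whether the RNA-binding proteins Cugbp1 and Mbnl1 affect mRNA decay, and the comparisons below ask this of the p53 target mRNAs.

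The p53 protein is kept low in unstressed cells by Mdm2, the ubiquitin ligase that p53 itself induces, and it accumulates when DNA is damaged or ribosome synthesis fails. It binds a consensus response element made of a pair of decamers and induces genes that halt the cell cycle, limit oxidative stress or promote apoptosis. Actinomycin D binds DNA and is itself a known activator of the p53 protein at doses lower than those that block all transcription, while mRNAs of many p53 targets are known to turn over quickly.

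The p53 consensus site was looked for in the RefSeq promoter windows (250 bases before to 50 after a gene start, mouse build GRCm38.p6). For the 10 genes, 12 windows belonging to 8 of them were used. Pmaip1 and Trp53inp1 had no window among these 12, so nothing is said here about their promoters. A full site of 20 bases with at most 1 mismatch was present in 29 of all 32851 windows (0.0883%), and windows of Cdkn1a and Ccng1 were among them. The stretches of these 2 windows are printed because no other of the 12 windows had a full site with at most 1 mismatch. The mRNAs of these genes moved in opposite directions after Mbnl1 siRNA, as described below, and a link to the sites was not tested. The capitals mark the site and the lower-case letters its flanks, each read 5′ to 3′ on the strand of its gene. The Cdkn1a stretch is chr17:29090868-29090967, plus strand, with the site at positions -51 to -32 from the gene start of that window. A second Cdkn1a window, for another start (chr17:29093519-29093818), held no decamer of the consensus, and its best full site had 5 mismatches. The Ccng1 stretch is chr11:40755442-40755536, minus strand, with the site at positions -195 to -176.
Cdkn1a promoter: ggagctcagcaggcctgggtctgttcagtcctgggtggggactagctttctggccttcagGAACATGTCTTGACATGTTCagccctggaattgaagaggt
Ccng1 promoter: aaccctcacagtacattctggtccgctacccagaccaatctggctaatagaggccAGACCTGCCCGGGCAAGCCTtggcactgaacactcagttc
Both sites matched the consensus at 19 of 20 bases. A single decamer (10 bases) occurred in 6 of the 12 windows, against 2745 of all 32851 windows (8.36%). The genes were chosen for their tie to p53, and Bbc3, Sesn1 and Cdkn1a have several windows each, so these counts are not a test. The match is a description of these letters, and binding of p53 was not measured.

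The siRNA targets were low in the arrays labelled with them. The Celf1 intensity in Cugbp1 siRNA arrays was 30.9%, 22.1% and 21.6% of the control siRNA arrays at 0, 2.5 and 5 h, and the Mbnl1 intensity in Mbnl1 siRNA arrays was 22.0%, 18.3% and 15.9%. Celf1 was also low in the Mbnl1 siRNA arrays, at 72.4%, 65.4% and 61.5% of the control siRNA arrays, and its part in the Mbnl1 siRNA results was not tested. Mbnl1 in the Cugbp1 siRNA arrays was at 93.4%, 94.4% and 98.9%. All 8 myoblast markers (Myod1, Myf5, Cdh15, Des, Ncam1, Pax7, Musk and Chrna1) passed the filter. None of 4 endothelial and none of 3 annotated adipocyte markers did, nor did the leukocyte marker Ptprc, while 3 of 4 fibroblast markers did. Median intensities per array lay between 104.92 and 113.01. Because RMA gives all arrays a common distribution, a value describes an mRNA relative to the rest of its array. Intensities of different probe sets are not compared with each other.

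**Figure D1:**
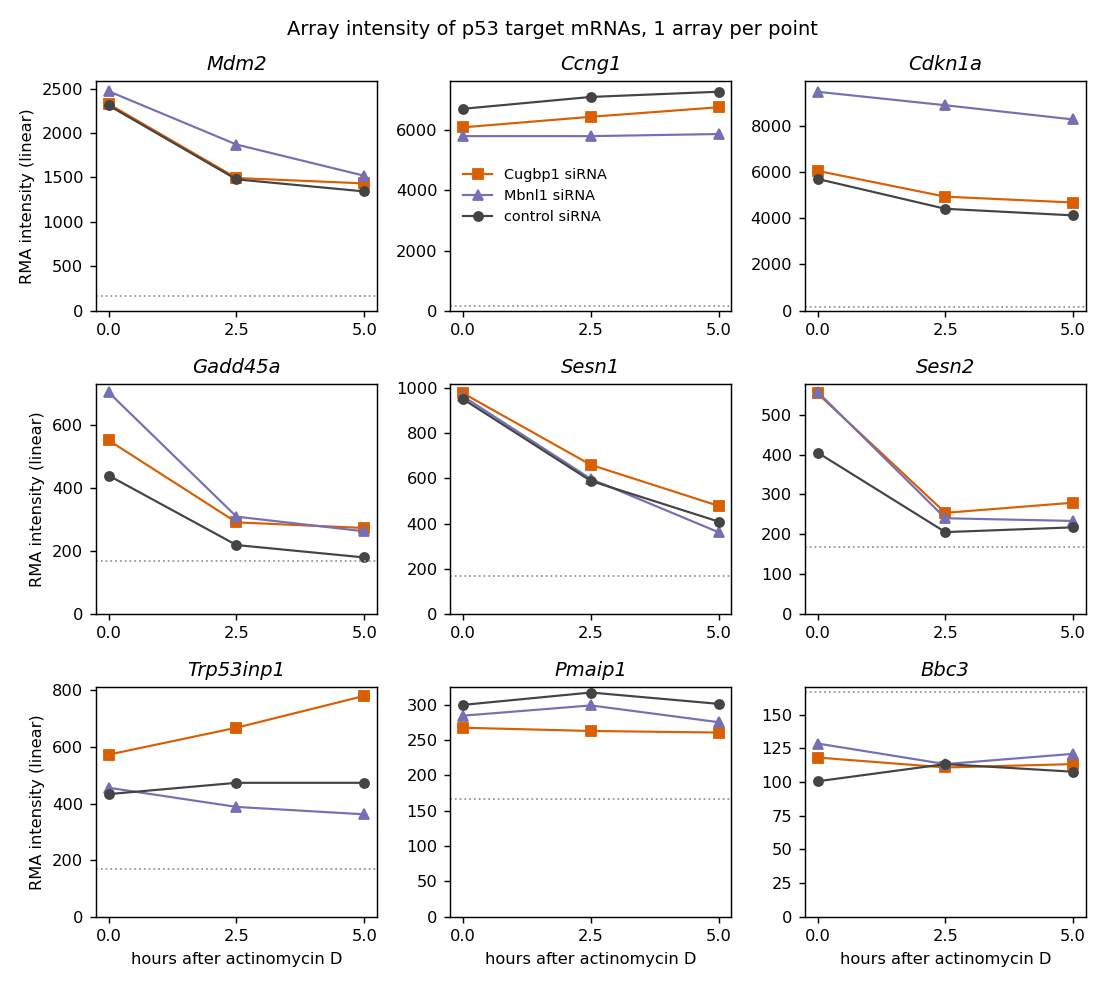
RMA intensity (linear scale, y axis) of the 9 measured p53 target mRNAs against hours after actinomycin D (x axis), with 1 array per point, for Cugbp1 siRNA (squares), Mbnl1 siRNA (triangles) and control siRNA (circles); the dotted line is the filter at 167.1. Cdkn1a is highest and Ccng1 lowest in the Mbnl1 siRNA arrays at each time, Trp53inp1 separates by siRNA with time, and Bbc3 lies below the line in all 9 arrays.

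Mbnl1 siRNA moved 2 of the main p53 targets apart: Cdkn1a was 1.89-fold higher and Ccng1 fell by 0.27 on the log2 scale, in every one of the 3 time-matched pairs. Cdkn1a encodes p21, the cyclin-dependent kinase inhibitor that arrests the cell cycle and that also rises when myoblasts leave the cycle to differentiate. Its intensity was 6047, 4929.9 and 4677 at 0, 2.5 and 5 h in Cugbp1 siRNA arrays, 9467, 8885 and 8270.0 in Mbnl1 siRNA arrays, and 5697, 4405 and 4120.0 in control siRNA arrays. The lowest Mbnl1 siRNA array stood above the highest array of either other siRNA. The ratio of Mbnl1 to control siRNA was 1.66, 2.02 and 2.01 at 0, 2.5 and 5 h, so the difference was present before transcription was stopped. The log2 difference over the 3 times was 0.92 ± 0.06 (SE, 3 arrays per siRNA, limma adjusted p = 1.08e-05). Against control siRNA, Cugbp1 siRNA gave a Cdkn1a difference of 0.14 ± 0.06 (limma adjusted p = 0.124), with 3 of 3 pairs higher.

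Ccng1 encodes cyclin G1, which recruits a phosphatase to Mdm2. Its intensity was 6103, 6453 and 6771 at 0, 2.5 and 5 h in Cugbp1 siRNA arrays, 5809, 5809 and 5879 in Mbnl1 siRNA arrays, and 6719, 7114 and 7287 in control siRNA arrays. The Mbnl1 siRNA arrays were the lowest at each time and did not overlap either other siRNA. The log2 difference between Mbnl1 and control siRNA was -0.27 ± 0.04 (SE, limma adjusted p = 0.000598). For Cugbp1 against control siRNA it was -0.13 ± 0.04, which missed the threshold (limma adjusted p = 0.0527) although 3 of 3 pairs were lower. That difference was called with a stricter filter on dim probe sets (limma adjusted p = 0.021) and with a robust prior (limma adjusted p = 0.0045). In the 9 fits that left out 1 array it was called in 2, with limma adjusted p of 0.040 to 0.190. Across the 9 arrays, which share siRNA and time, the log2 values of Cdkn1a and Ccng1 ran in opposite directions (Pearson r = -0.939).

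Markers of other cell states moved with Mbnl1 siRNA as well. The mean log2 intensity of 7 markers of differentiated muscle, 4 of which passed the filter, was 8.02 to 8.05 in Mbnl1 siRNA arrays and 7.55 to 7.65 in control siRNA arrays. Tnni1 was higher by 1.14, Tnnt3 by 1.05, Ckm by 0.64 and Acta1 by 0.47. Myog, which opens the differentiation programme, lay below the filter with a difference of -0.22, as did Myh3 (0.07) and Actn2 (0.01). The 4 epithelial markers had a mean log2 of 8.15 to 8.36 in Mbnl1 siRNA arrays and 7.02 to 7.21 in control siRNA arrays. Krt8 was higher by 2.69 and Cdh1 by 1.26, while Krt18 (0.34) and Epcam (0.05) were below the filter. Of 6 leukocyte markers only the lysosomal gene Cd68 passed the filter, and it was higher by 1.15. Some other markers were lower in Mbnl1 siRNA arrays: the myoblast genes Myod1 and Cdh15 by a log2 difference of -0.58 each, with a mean of 10.54 to 10.74 over the 8 myoblast markers against 10.71 to 10.93 in control siRNA arrays. The rest of the myoblast markers moved less, with Musk at -0.21, Pax7 at -0.13, Des at -0.06, Myf5 and Ncam1 at 0.0 each and Chrna1 at 0.14. The 4 fibroblast markers had a mean of 8.65 to 8.74 in Mbnl1 siRNA arrays and 8.94 to 9.0 in control siRNA arrays. Col1a1 was at -0.45, Col3a1 at -0.44 and Pdgfra at -0.24, and Thy1, below the filter, at 0.01. The part of these shifts in the Cdkn1a and Ccng1 results was not tested, and a change in the share of cells in one state cannot be told apart from a change in RNA per cell.

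**Figure D2:**
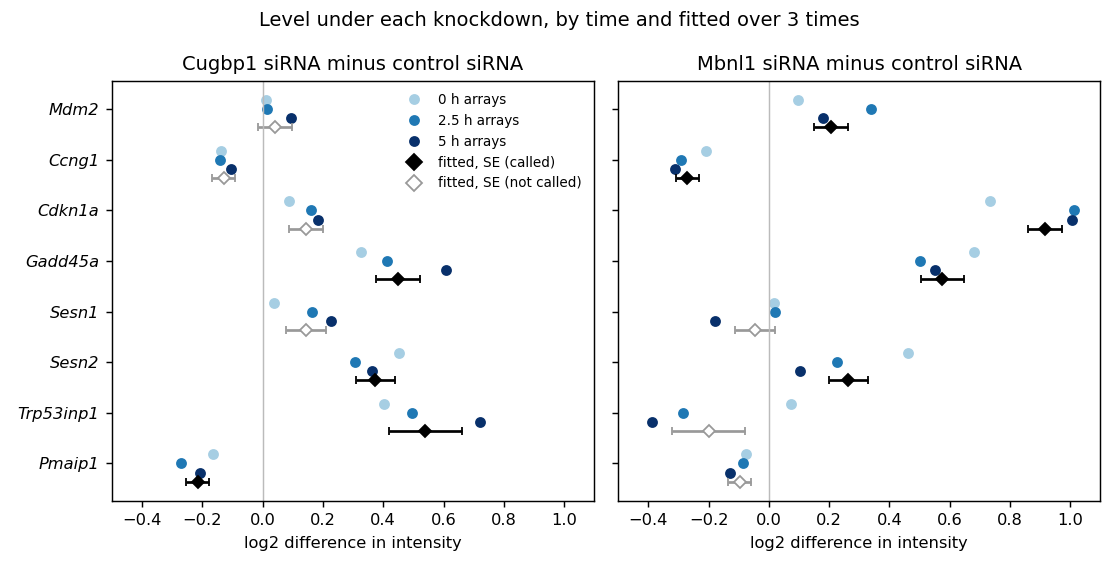
Log2 difference in intensity (x axis) for the 8 tested p53 targets (rows), Cugbp1 minus control siRNA on the left and Mbnl1 minus control siRNA on the right. Circles are the time-matched array pairs at 0, 2.5 and 5 h, and diamonds with bars are the fitted value over the 3 times and its SE, filled where the limma adjusted p was under 0.05. Cdkn1a under Mbnl1 siRNA has the largest fitted value, 0.92, and Gadd45a and Sesn2 lie to the right of 0 in both panels.

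Over the 8 tested targets, 5 differed in level between Mbnl1 and control siRNA at a limma adjusted p under 0.05, 4 higher and 1 lower, where 55.0% of all tested genes did (24.1% higher and 31.0% lower). Between Cugbp1 and control siRNA 4 of 8 differed, 3 higher and 1 lower, against 19.2% of all genes (10.5% higher and 8.67% lower). The median log2 difference of the 8 targets was 0.079 for Mbnl1 siRNA, where the median of all genes was -0.021, and 0.144 for Cugbp1 siRNA, where that of all genes was 0.011. Groups of 3 arrays did not overlap for Cdkn1a, Ccng1 and Pmaip1 between Mbnl1 and control siRNA (34.9% of all genes), and for Trp53inp1 and Pmaip1 between Cugbp1 and control siRNA (16.2% of all genes). Both comparisons use the same 3 control siRNA arrays.

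Gadd45a and Sesn2, both stress-response genes, were higher under each siRNA. Gadd45a encodes a growth arrest and DNA damage protein. It had 551, 291 and 273 at 0, 2.5 and 5 h in Cugbp1 siRNA arrays, 704, 309 and 262 in Mbnl1 siRNA arrays, and 439, 218 and 179 in control siRNA arrays. The control siRNA array was the lowest at each of the 3 times, but the groups overlapped because the level fell with time. The log2 difference from control siRNA was 0.45 ± 0.07 for Cugbp1 siRNA (limma adjusted p = 0.00527) and 0.58 ± 0.07 for Mbnl1 siRNA (limma adjusted p = 0.000302). The control array at 5 h, at 179, lay close to the filter.

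Sesn2 encodes sestrin 2, an inhibitor of mTORC1 signalling that senses leucine. It had 554, 254 and 279 at 0, 2.5 and 5 h in Cugbp1 siRNA arrays, 558, 240.1 and 233 in Mbnl1 siRNA arrays, and 405, 205 and 217 in control siRNA arrays. Both knockdowns stood above control siRNA at each time. At 0 h the ratio to control was 1.37 for Cugbp1 siRNA and 1.38 for Mbnl1 siRNA, and at 5 h it was 1.29 for Cugbp1 siRNA and 1.07 for Mbnl1 siRNA. The fitted log2 difference was 0.373 ± 0.065 for Cugbp1 siRNA (limma adjusted p = 0.0077) and 0.263 ± 0.065 for Mbnl1 siRNA (limma adjusted p = 0.00969). Sesn1, which encodes the related sestrin 1, had 978, 660.3 and 478 in Cugbp1 siRNA arrays, 964, 598 and 361 in Mbnl1 siRNA arrays, and 952, 589 and 409 in control siRNA arrays. At 0 h the 3 arrays lay within 1.03-fold of each other, and neither knockdown gave a call (log2 differences of 0.14 ± 0.07 for Cugbp1 siRNA and -0.046 ± 0.067 for Mbnl1 siRNA).

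Mdm2 had 2325, 1492 and 1432 at 0, 2.5 and 5 h in Cugbp1 siRNA arrays, 2469, 1869 and 1518 in Mbnl1 siRNA arrays, and 2309, 1477 and 1342 in control siRNA arrays. The Mbnl1 siRNA array was the highest at each time, most at 2.5 h, where it was 1.27-fold the control. The log2 difference was 0.205 ± 0.056 for Mbnl1 siRNA (SE, limma adjusted p = 0.0148) and 0.040 ± 0.056 for Cugbp1 siRNA (limma adjusted p = 0.675). The call for Mbnl1 siRNA was lost when the control 2.5 h, the control 5 h or the Mbnl1 2.5 h array was left out, with adjusted p up to 0.0747.

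Trp53inp1 encodes a nuclear stress protein that promotes p53 activity. It had 573, 668 and 780.3 at 0, 2.5 and 5 h in Cugbp1 siRNA arrays, 456, 388 and 362 in Mbnl1 siRNA arrays, and 433, 473 and 473 in control siRNA arrays. All 3 Cugbp1 siRNA arrays lay above all arrays of the other siRNAs, and the distance widened with time. The log2 difference was 0.54 ± 0.12 for Cugbp1 against control siRNA (limma adjusted p = 0.0192), -0.74 ± 0.12 for Mbnl1 against Cugbp1 siRNA (limma adjusted p = 0.00122) and -0.20 ± 0.12 for Mbnl1 against control siRNA (limma adjusted p = 0.192). The difference between Cugbp1 and control siRNA lost its call in 5 of 9 fits that left out 1 array, with adjusted p up to 0.0839, and missed the threshold without the filter on dim probe sets.

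Pmaip1 encodes Noxa, a pro-apoptotic BH3-only protein. It had 267, 263 and 260.4 at 0, 2.5 and 5 h in Cugbp1 siRNA arrays, 284, 299 and 275 in Mbnl1 siRNA arrays, and 299.5, 317 and 301 in control siRNA arrays. The 3 siRNAs did not overlap, with Cugbp1 siRNA lowest and control siRNA highest. The log2 difference was -0.215 ± 0.038 for Cugbp1 siRNA (limma adjusted p = 0.00794) and -0.097 ± 0.038 for Mbnl1 siRNA (limma adjusted p = 0.0603). The Cugbp1 siRNA call was lost when either 2.5 h array of that pair was left out (adjusted p up to 0.054). Bbc3 encodes Puma, another BH3-only protein, and had 118, 111 and 113 in Cugbp1 siRNA arrays, 129, 113 and 121 in Mbnl1 siRNA arrays, and 101, 113 and 108 in control siRNA arrays. With every array below the filter, these values set no order, and Bbc3 was not called in any comparison fitted without the filter.

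Between Mbnl1 and Cugbp1 siRNA 6 of the 8 targets differed in level, 3 higher and 3 lower, where 56.4% of all genes did (23.0% higher and 33.4% lower). Groups of 3 arrays did not overlap for Cdkn1a, Ccng1, Pmaip1 and Trp53inp1 (35.2% of all genes). Cdkn1a was higher by 0.77 ± 0.06 (limma adjusted p = 2.35e-05), Mdm2 by 0.165 ± 0.056 and Pmaip1 by 0.12 ± 0.04. Trp53inp1 was lower as given above, and so were Sesn1 (-0.19 ± 0.07) and Ccng1 (-0.14 ± 0.04). Only Cdkn1a and Trp53inp1 kept their call in each of the 9 fits that left out 1 array; the calls of Sesn1, Mdm2, Pmaip1 and Ccng1 were lost in 7, 5, 4 and 4 of them.

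After transcription was stopped, the targets split into 5 mRNAs that fell and 3 that did not. Sesn2, Gadd45a, Sesn1, Mdm2 and Cdkn1a were lower at 2.5 h than at 0 h in 3 of 3 siRNAs and passed the test, where 24.2% of all genes were called lower and 47.4% called in either direction. All but Cdkn1a had 2.5 h arrays that did not overlap the 0 h arrays (30.4% of all genes). The same 5 mRNAs were called lower at 5 h, against 32.8% of all genes lower and 68.4% in either direction. The median log2 change at 5 h was -0.54 over the 8 targets and 0.035 over all genes. Groups of 3 arrays did not overlap between 5 and 0 h for Gadd45a, Sesn1, Sesn2 and Mdm2 (44.2% of all genes), while for Cdkn1a the Mbnl1 siRNA arrays at 5 h stood above the other siRNAs at 0 h.

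**Figure D3:**
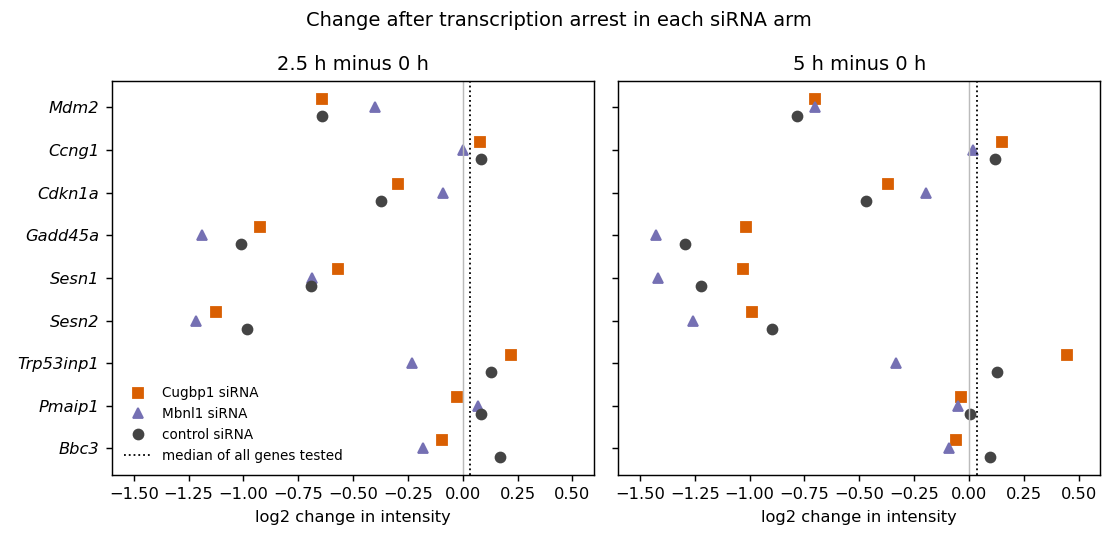
Log2 change in intensity from 0 h (x axis) within each siRNA for the 9 measured p53 targets (rows), at 2.5 h on the left and 5 h on the right, 1 array pair per point; squares are Cugbp1 siRNA, triangles Mbnl1 siRNA and circles control siRNA, and the dotted line is the median over all tested genes. At 5 h Gadd45a, Sesn1 and Sesn2 lie between -1.43 and -0.90 in every siRNA, and Trp53inp1 is at 0.45 in Cugbp1 siRNA, -0.33 in Mbnl1 siRNA and 0.13 in control siRNA.

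Gadd45a and Sesn2 had the largest fitted falls at 2.5 h among the 8 targets. Of the 0 h intensity of Gadd45a, 52.7% was left at 2.5 h in Cugbp1 siRNA, 43.9% in Mbnl1 siRNA and 49.7% in control siRNA, and at 5 h 49.4%, 37.2% and 40.7% was left. The log2 change over the siRNAs was -1.04 ± 0.07 at 2.5 h and -1.25 ± 0.07 at 5 h (SE, limma adjusted p = 2.84e-06 at 5 h). For Sesn2, 45.8%, 43.0% and 50.6% was left at 2.5 h in Cugbp1, Mbnl1 and control siRNA, and 50.4%, 41.8% and 53.6% at 5 h. The log2 change of Sesn2 was -1.108 ± 0.065 at 2.5 h (limma adjusted p = 8.43e-06), and the change between 2.5 and 5 h was 0.060 ± 0.065 (limma adjusted p = 0.542). Its arrays at 2.5 and 5 h had intensities of 205 to 279, close to the filter.

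Sesn1 was called lower in both intervals. In Cugbp1 siRNA 67.5% was left at 2.5 h and 48.9% at 5 h, in Mbnl1 siRNA 62.0% and 37.5%, and in control siRNA 61.9% and 42.9%. The log2 change was -0.65 ± 0.07 at 2.5 h and -1.22 ± 0.07 at 5 h (limma adjusted p = 2.16e-06 at 5 h). Between 2.5 and 5 h it changed by -0.57 ± 0.07 (limma adjusted p = 0.00107), and it was the only 1 of the 8 targets called in that interval with the deposited scaling, in which 21.4% of all genes were called (16.9% lower and 4.47% higher), and the 5 h arrays did not overlap the 2.5 h arrays, as for 16.6% of all genes. With equal ribosomal protein medians Mdm2 (-0.293), Gadd45a (-0.332), Cdkn1a (-0.219) and Pmaip1 (-0.196) were called lower in that interval too, and Mdm2 also with a robust prior or a stricter filter. Gadd45a was also called there in 3 of the 9 fits that left out 1 array. The loss from 0 to 5 h corresponds to an apparent half-life, if the loss was exponential and relative to the other mRNAs, of 4.84 h in Cugbp1 siRNA, 3.53 h in Mbnl1 siRNA and 4.1 h in control siRNA.

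Mdm2 and Cdkn1a fell less. Of Mdm2, 61.6% was left at 5 h in Cugbp1 siRNA, 61.5% in Mbnl1 siRNA and 58.1% in control siRNA, and the log2 change at 5 h was -0.73 ± 0.06 (limma adjusted p = 1.39e-05). At 2.5 h the Mbnl1 siRNA array still had 75.7% of its Mdm2, against 64.2% in Cugbp1 siRNA and 64.0% in control siRNA. Of Cdkn1a, 77.3% was left at 5 h in Cugbp1 siRNA, 87.4% in Mbnl1 siRNA and 72.3% in control siRNA. Its log2 change was -0.25 ± 0.06 at 2.5 h (limma adjusted p = 0.0089) and -0.34 ± 0.06 at 5 h (limma adjusted p = 0.00106), and the 2.5 h call was lost without the control 2.5 h array (adjusted p = 0.0502).

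Ccng1, Pmaip1 and Trp53inp1 passed no test of change over time in the main fit, with the deposited scaling and the filter given above. The Ccng1 change at 5 h was 0.095 ± 0.038 (limma adjusted p = 0.0564), with 111% left in Cugbp1 siRNA, 101% in Mbnl1 siRNA and 108% in control siRNA. Shares above 100% are relative to the other mRNAs on the array. When the arrays were instead set to equal medians of 52 cytosolic ribosomal protein mRNAs, the median change of all genes at 5 h moved to -0.20, all 5 called falls remained called, and the Ccng1 change turned to -0.14. In that scaling Pmaip1 was also called lower at 5 h (-0.26, limma adjusted p = 0.00236), against -0.026 ± 0.038 with the deposited scaling. With the deposited scaling, the Ccng1 rise at 5 h was called with a stricter filter (limma adjusted p = 0.0309) and with a robust prior (limma adjusted p = 0.00697). It was also called in 2 of the 9 fits that left out 1 array. Trp53inp1 was called higher at 5 h without the Mbnl1 0 h array (0.251, limma adjusted p = 0.0315), and was -0.057 without the Cugbp1 0 h or 5 h array.

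**Figure D4:**
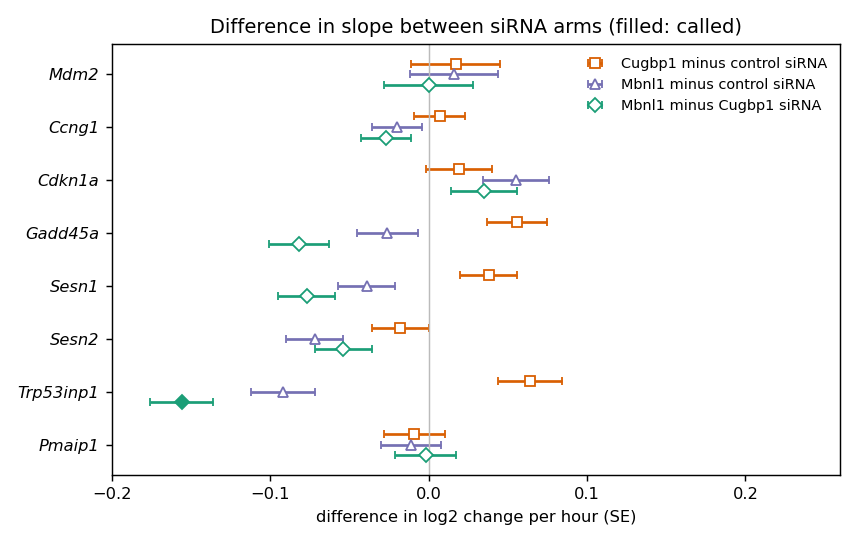
Difference between siRNAs in the log2 change per hour after actinomycin D (x axis, with SE) for the 8 tested p53 targets (rows); squares are Cugbp1 minus control siRNA, triangles Mbnl1 minus control siRNA and diamonds Mbnl1 minus Cugbp1 siRNA, filled where the limma adjusted p was under 0.05. The single filled point is Trp53inp1, Mbnl1 minus Cugbp1 siRNA, at -0.156 per hour.

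Whether a knockdown altered the rate of loss was tested as the difference in hourly slope between siRNAs. Because the 3 times are evenly spaced, the estimate rests on the 0 and 5 h arrays, and the 2.5 h arrays enter only its error. A difference present mainly at 2.5 h is therefore not seen by this test. For Mdm2, whose Mbnl1 siRNA array stood out at 2.5 h, the slope difference from control siRNA was 0.016 ± 0.028 per hour. Against control siRNA none of the 8 targets was called for Cugbp1 siRNA, where 0.0% of all genes were called, and none for Mbnl1 siRNA, where 0.0203% were. At an unadjusted limma p under 0.05 there were 2 for Cugbp1 siRNA, Gadd45a and Trp53inp1, both with higher slopes than in control siRNA, where 11.4% of all genes passed that threshold. There were 3 for Mbnl1 siRNA, Cdkn1a with a higher slope and Sesn2 and Trp53inp1 with lower slopes, where 13.8% of all genes did. The Cdkn1a slope was 0.055 ± 0.021 per hour higher in Mbnl1 than in control siRNA (limma adjusted p = 0.327), while its level already differed at 0 h. For Sesn2 the slope difference between Mbnl1 and control siRNA was -0.072 ± 0.018 per hour (limma adjusted p = 0.175).

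Trp53inp1 was the only 1 of the 8 targets called for a slope difference, between Mbnl1 and Cugbp1 siRNA, where 0.943% of all genes were called (0.0912% higher and 0.851% lower). At 5 h the intensity was 136% of its 0 h value in Cugbp1 siRNA, 79.4% in Mbnl1 siRNA and 109% in control siRNA. The slope was 0.156 ± 0.020 per hour lower in Mbnl1 than in Cugbp1 siRNA, a difference of -0.156 (limma adjusted p = 0.038). Neither knockdown was called against control siRNA (0.064 ± 0.020 per hour for Cugbp1 siRNA, limma adjusted p = 0.365, and -0.092 ± 0.020 for Mbnl1 siRNA, limma adjusted p = 0.137), but for Mbnl1 siRNA it was called with equal ribosomal protein medians (-0.12, limma adjusted p = 0.0266) and without the Mbnl1 2.5 h array (-0.092, limma adjusted p = 0.048). In the 9 fits that left out 1 array the difference was -0.194 to -0.117. The call was lost in 5 of them, with adjusted p up to 0.568, and in 4 of these 5 no gene of 9865 was called. It was also lost without the filter on dim probe sets (-0.156, limma adjusted p = 0.272), and kept with equal ribosomal protein medians (-0.17, limma adjusted p = 0.009).

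A wider list of 40 other p53 target genes, of which 35 were annotated and 30 passed the filter, was tested in the same fits. Between Mbnl1 and control siRNA 15 were higher and 5 lower, against 24.1% of all genes higher and 31.0% lower, and the median was 0.144, against -0.021 over all genes. Plk3, a polo-like stress kinase, was higher by 1.62 ± 0.15 and Thbs1, the secreted angiogenesis inhibitor thrombospondin 1, by 0.81 ± 0.04, while Ckap2, a spindle protein, changed by -1.04 ± 0.04 and Dram1, a lysosomal autophagy protein, by -0.51 ± 0.05. Further members that rose were Gadd45b (0.715 ± 0.093), Eda2r (0.68 ± 0.07) and Tnfrsf10b (0.555 ± 0.034), the last a death receptor. The other called falls were those of Zmat3 (-0.366 ± 0.054), Aen (-0.249 ± 0.068) and Phlda3 (-0.191 ± 0.039). Between Cugbp1 and control siRNA 4 were higher and 3 lower, against 10.5% and 8.67% of all genes, which is near that background. Among them were Ddit4, an inhibitor of mTORC1, at 0.46 ± 0.06, and Gadd45g, a paralogue of Gadd45a, at 0.301 ± 0.065, against Rrm2b, a ribonucleotide reductase subunit, at -0.18 ± 0.04 and Trp53inp2 at -0.16 ± 0.04. With equal ribosomal protein medians these counts were 3 higher and 1 lower.

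Over time, 18 of these 30 genes were lower and 5 higher at 5 h than at 0 h, against 32.8% of all genes lower and 35.6% higher, and the median was -0.31, against 0.035 over all genes. The 23 called in all are near the 68.4% of all genes called. With equal ribosomal protein medians 23 were lower and none higher. The largest rises were those of Trp53i11 (0.21 ± 0.05) and Tnfrsf10b (0.19 ± 0.03). The largest falls were those of Plk2, another polo-like kinase, at -2.20 ± 0.15 and Ddit4 at -1.80 ± 0.06, and Gadd45g changed by -1.509 ± 0.065. Ccng2, the paralogue of Ccng1, changed by -1.04 ± 0.04, where Ccng1 itself did not pass in the main fit. Between Mbnl1 and Cugbp1 siRNA 2 of the 30 differed in slope, where 0.943% of all genes did: Btg2, an antiproliferative gene, by -0.21 ± 0.03 per hour (limma adjusted p = 0.0477) and Plk3 by 0.18 ± 0.02 per hour (limma adjusted p = 0.038). Both calls were lost without the filter on dim probe sets, where no gene was called. They were also lost in the 4 of 9 fits leaving out 1 array in which no gene was called. Btg2 and Plk3 were not looked up in the remaining fits.

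Of 36 regulators and partners of p53, 35 were annotated and 32 tested. Between Mbnl1 and control siRNA 13 were lower and 4 higher, against 31.0% and 24.1% of all genes. Their median was -0.090 and that of all genes -0.021. The 17 called are near the 55.0% of all genes called. Chek1, a checkpoint kinase that phosphorylates p53, was lower, at -0.81 ± 0.04, as was Mapk8, the stress kinase JNK1, at -0.585 ± 0.073. Further kinases, picked from the list after their values were seen, were Hipk2 at -0.514 ± 0.065, Chek2 at -0.41 ± 0.08 and Atr at -0.41 ± 0.06. Atm, another kinase on the list, was not called (-0.073 ± 0.05, limma adjusted p = 0.246). Ppp1r13l, the p53 inhibitor iASPP, was higher by 0.35 ± 0.04, and Rbm38, an RNA-binding protein that is itself a p53 target, by 0.174 ± 0.045. Between Cugbp1 and control siRNA 1 was higher (Trp53bp1, 0.13 ± 0.04) and 4 lower, the largest falls being Ppp1r13b (-0.293 ± 0.065) and Chek1 (-0.25 ± 0.04), and with equal ribosomal protein medians 0 were higher and 3 lower. At 5 h against 0 h, 15 were lower and 7 higher, against 32.8% of all genes lower and 35.6% higher, so the 22 called are near the 68.4% of all genes called. Ppm1d, the phosphatase Wip1 that switches off p53, changed by -1.99 ± 0.04 and Ppp1r13b, the p53 partner ASPP1, by -1.774 ± 0.065. Mdm4, the partner of Mdm2 in holding p53 down, rose by 0.26 ± 0.08, where Mdm2 fell, and the RNA-binding protein gene Ybx1 rose by 0.26 ± 0.04, but with equal ribosomal protein medians none of the 32 was called higher.

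The 3 genes with the closest pattern to a target were taken by Pearson correlation of log2 intensity over the 9 arrays, which share siRNA and time, and are given as a description. Closest to Mdm2 were Klf3 (r = 0.995), Sbno2 (r = 0.991) and Plcd3 (r = 0.988). Klf3, a Krüppel-like transcription repressor, had 1210.1, 674 and 610.1 at 0, 2.5 and 5 h in Cugbp1 siRNA arrays, 1260.0, 861 and 681 in Mbnl1 siRNA arrays, and 1257, 645 and 542 in control siRNA arrays. It shared with Mdm2 the higher 2.5 h value in Mbnl1 siRNA. Closest to Cdkn1a were Nectin2 (r = 0.991), Grasp (r = 0.988) and Xylt2 (r = 0.988), and closest to Ccng1 were Ttll7 (r = 0.988), Lims1 (r = 0.984) and Nfib (r = 0.980).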

How the data were processed

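The authors deposited RMA intensity values, made in Affymetrix Expression Console per the submitters' processing notes. Software versions were not given in the sources used here. That the scale is linear was read from the values. Log2 was taken here. RNA (100 ng) was labelled for whole-transcript arrays per the labels' protocols. Of 35556 probe sets, 21789 had 1 symbol, 1621 several and 12146 none. Probe sets were kept at a mean log2 of 7.385 or more, the 50th percentile of those with 1 symbol, and a gene was represented by its brightest. The Cdkn1a probe set carried a second symbol, 4930567H12Rik, and was kept because its RefSeq accessions belong to Cdkn1a, which raised the genes tested by 1 to 9865.

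Levels and changes were fitted by lmFit and eBayes of limma 3.58.1 (R 4.3.3), with siRNA and time as factors (4 residual degrees of freedom). Slopes added a straight line per siRNA (2 residual degrees of freedom). There are no replicates, so p-values set an effect against the variation of siRNA with time, not against the spread between cultures, and precision is limited by having 9 arrays. Calls needed an adjusted p (Benjamini-Hochberg, all genes of a contrast) under 0.05. The fits were tested on simulated data; recovery of slope differences fell short of the first target set, which was then lowered.

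The 10 genes and the lists were chosen with earlier results of these data known. Genes outside the 10 were named from those called in the lists (the 2 largest in each direction first) and by the correlation given. Further list members were chosen after their values were seen. Among targets these were Gadd45b, Eda2r, Tnfrsf10b, Gadd45g, Ccng2, Zmat3, Aen and Phlda3. Among regulators they were Hipk2, Chek2, Atr and Atm. Promoter sequences are from RefSeq (GRCm38.p6). Alternatives were another filter, ribosomal scaling, a robust prior and leaving out each array.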

Additional observations from a re-analysis of the deposited data

Results flagged for a closer look

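Trp53inp1 differed in its course between siRNAs. Its log2 change from 0 to 5 h was 0.446 in Cugbp1 siRNA, -0.333 in Mbnl1 siRNA and 0.127 in control siRNA, with both later arrays of each siRNA on the same side of 0 h, and the difference in hourly slope between Mbnl1 and Cugbp1 siRNA was -0.156 by limma. Pmaip1 had both later arrays below 0 h in Cugbp1 siRNA, with a log2 change of -0.037 at 5 h, and both above it in control siRNA, with 0.007. Bbc3 had both later arrays below 0 h in Cugbp1 siRNA (-0.061) and Mbnl1 siRNA (-0.089) and above it in control siRNA (0.098), with all values under the filter. The opposite signs of Pmaip1 and Bbc3 were picked out by sign alone, and their slope differences were not called.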

How the results depend on the processing

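Arrays could not be paired by culture because the labels give no replicate numbers. They were matched between siRNAs only by time, which was a factor in every fit. Counts are of targets called among 8, and the cause of a change was not tested unless given. With a stricter filter only Mdm2, Ccng1 and Cdkn1a were left to test. It gave 1 call for the level under Cugbp1 siRNA, 3 under Mbnl1 siRNA, 3 between Mbnl1 and Cugbp1 siRNA, 2 at 2.5 h, 3 at 5 h and 0 for the slope between Mbnl1 and Cugbp1 siRNA. The call under Cugbp1 siRNA was Ccng1 (-0.129), which the main fit did not call, and none of the targets called there by the main fit was left to test. The calls at 5 h included a rise of Ccng1 (0.095) that the main fit did not call. Without a filter the level between Mbnl1 and Cugbp1 siRNA had 3 calls and the slope 0. With equal ribosomal protein medians there were 3 for that level, 5 between 2.5 and 5 h, 2 for the slope of Mbnl1 against control siRNA and 2 against Cugbp1 siRNA. An intensity trend with a robust prior gave 2 between 2.5 and 5 h. Leaving out 1 array gave 2 to 6 calls for the level under Cugbp1 siRNA, 4 to 6 under Mbnl1 siRNA, 2 to 6 between the knockdowns, 4 to 5 at 2.5 h, 5 to 7 at 5 h, 1 to 2 between these, and 0 to 0, 0 to 1 and 0 to 3 for the slopes of Cugbp1 against control, Mbnl1 against control and Mbnl1 against Cugbp1 siRNA. Averaging probe sets, and naming shared probe sets by accession (chosen after seeing the data), changed no call. Each measured target had 1 probe set, so trying each alone gave no other value.

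With equal ribosomal protein medians some values that were not called turned negative: the change at 2.5 h of Ccng1 (-0.053), Pmaip1 (-0.064) and Trp53inp1 (-0.068), at 5 h of Ccng1 (-0.139) and Trp53inp1 (-0.154), between 2.5 and 5 h of Ccng1 (-0.086), Trp53inp1 (-0.086) and Sesn2 (-0.067), and the slope against control siRNA of Ccng1 in Cugbp1 siRNA (-0.007) and Mdm2 in Mbnl1 siRNA (-0.012). Shares left that fell below 100% were those of Ccng1 (96.49% at 2.5 h and 94.42% at 5 h in Cugbp1 siRNA, 81.88% at 5 h in Mbnl1 siRNA and 96.81% at 5 h in control siRNA), Pmaip1 (97.17% at 2.5 h in Mbnl1 siRNA and 89.68% at 5 h in control siRNA), Trp53inp1 (97.49%) and Bbc3 (95.57%), both at 5 h in control siRNA. Leaving out 1 array turned these uncalled values within ranges of -0.104 to 0.041 for the Sesn1 level under Mbnl1 siRNA, and for Trp53inp1 -0.098 to 0.21 at 2.5 h, -0.057 to 0.251 at 5 h and -0.096 to 0.18 between them. For slopes between Cugbp1 and control siRNA the ranges were -0.039 to 0.072 for Mdm2, -0.004 to 0.017 for Ccng1, -0.015 to 0.054 for Cdkn1a, -0.046 to 0.028 for Pmaip1 and -0.049 to 0.014 for Sesn2. For slopes between Mbnl1 and control siRNA the ranges were -0.072 to 0.105 for Mdm2, -0.035 to 0.013 for Pmaip1 and -0.061 to 0.009 for Gadd45a. For slopes between Mbnl1 and Cugbp1 siRNA the ranges were -0.089 to 0.088 for Mdm2, -0.017 to 0.087 for Cdkn1a and -0.039 to 0.035 for Pmaip1. Counts over all genes moved too. Equal ribosomal protein medians gave 522 higher and 712 lower for the level under Cugbp1 siRNA (1039 and 855 as deposited), 2253 and 2616 between Mbnl1 and Cugbp1 siRNA (2269 and 3295), 240 and 3242 at 2.5 h (2283 and 2392), 281 and 5857 at 5 h (3514 and 3233), and 9 and 3937 between 2.5 and 5 h (441 and 1672), with medians of all genes of -0.074 at 2.5 h and -0.199 at 5 h. Slopes against control siRNA for Mbnl1 siRNA had 2 calls, and 295 with that scaling, 198 with the robust prior, 21 with averaged probe sets, 82 with the stricter filter and 0 without a filter; against Cugbp1 siRNA they had 93, and 355, 321 and 0 with that scaling, the robust prior and no filter. Slopes of Cugbp1 siRNA had 0 calls, and 3 with the stricter filter and 4 with the robust prior. Without a filter the level under Cugbp1 siRNA had 969 calls (1894 with it) and the change from 2.5 to 5 h 1142 (2113). With the stricter filter, which tested 4885 genes, there were 3198 calls for the level under Mbnl1 siRNA (5427), 3174 between the knockdowns (5564), 2610 at 2.5 h (4675), 3509 at 5 h (6747) and 1290 from 2.5 to 5 h. With 1 array left out the level under Cugbp1 siRNA had as few as 742, without the control 2.5 h array, and the change from 2.5 to 5 h as few as 1019, without the Mbnl1 2.5 h array; slopes of Mbnl1 siRNA had 0 to 206 against control and 0 to 475 against Cugbp1 siRNA, highest without the Mbnl1 2.5 h array.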
